A study of Mus musculus with 20 samples.

Results

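The genes described here carry out fast inhibitory transmission in the mouse spinal cord, and they were followed over the 4 groups and both array sets of the study. The list held 9 genes, taken by name, and a gene was measured where a probe set carried its symbol and no other. By that rule 8 of the 9 genes were measured, out of 22180 genes tested in all: Gad1, Gad2, Slc32a1, Slc6a5, Glra1, Glra3, Glrb and Gphn. The probe set for Slc6a9, the glycine transporter of glia, also carries the symbol Ccdc24, so Slc6a9 was not analysed here.

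Inhibitory neurons of the spinal cord release GABA, glycine or both from the same terminals. GABA is made from glutamate by glutamate decarboxylases, and glycine is gathered into the terminal by a plasma membrane transporter, after which a shared vesicular transporter loads either transmitter into synaptic vesicles. Glycine then opens chloride channels built of alpha and beta subunits, which the scaffold protein gephyrin anchors opposite the terminal together with GABA-A receptors.

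Spinal cord was taken from C57BL/6J mice aged 6 to 10 weeks, 4 h after an intraperitoneal injection, and total RNA was hybridised to Affymetrix whole-transcript arrays. The 4 groups of 5 arrays were Cx30GRko mice given dexamethasone (Dex), Cx30GRko mice given saline, control mice given Dex and control mice given saline. Dex, a synthetic agonist of the glucocorticoid receptor, was given at 4 mg/kg. Cx30GRko mice lack the glucocorticoid receptor where Cre recombined its gene in cells that express connexin 30, a gap junction protein of astrocytes and of some other cells. It is known from astrocytes rather than from the neurons that use the 8 genes. The allele of the receptor carried by control animals was not given in the sources used here, and titles with Tg were read as Cx30GRko and titles with wt as control. The design text counts 5 mice per group. Nothing else shows how the arrays relate to animals, so the p-values measure the spread between these arrays.

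Values are log2 signals as the authors deposited them, and a difference of 1 is a doubling of signal. The deposited values of replicates 1 to 3 (12 arrays) and of replicates 4 and 5 (8 arrays) had been centred to the same mean for every probe set, and values by set are given beside most pooled ones. The spread between replicates differed between the sets, with a median residual SD over genes of 0.21 in the first set but 0.37 in the second. In the second set the arrays of Cx30GRko Dex replicates 4 and 5 stood apart, with an SD over probe sets of 1.95 and 1.81. Most of the larger differences they enter are also given without them. The receptor gene Nr3c1 averaged 6.59 ± 0.70 in Cx30GRko Dex, 6.19 ± 0.21 in Cx30GRko saline, 6.22 ± 0.08 in control Dex and 6.21 ± 0.50 in control saline (SD, n = 5 each), and Cx30GRko minus control was 0.37 ± 0.26 under Dex and -0.02 ± 0.26 under saline (SE, limma adjusted p of 0.6 and 0.995), so its signal did not separate the genotypes. Which part of the receptor gene the probe set covers was not established. General neuron, oligodendrocyte and astrocyte markers lay at median percentiles of 98.8, 96.5 and 93.7 of all probe sets, whereas markers of skeletal muscle and of dorsal root ganglion neurons lay at 43.7 and 34.4.

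None of the 8 genes passed the test in any comparison (limma, Benjamini-Hochberg adjusted p under 0.05 over 22180 genes). For Dex against saline, 0 of 8 were called in Cx30GRko mice, where 0.018% of all genes were, and 0 of 8 in control mice, where 0.0135% were. For the mean of both Dex effects 0 of 8 were called, against 0.149% of all genes. No gene of the array was called for the genotype effect under Dex, the genotype effect under saline, their mean or the interaction of genotype and Dex (0% each). At an unadjusted p under 0.05 the members numbered 2 of 8 for Dex in Cx30GRko mice (9.73% of all genes), 1 of 8 for Dex in control mice (5.16%), 2 of 8 for the mean Dex effect (8.64%), 1 of 8 for genotype under Dex (11.2%), 1 of 8 for genotype under saline (5.25%), 1 of 8 for the mean genotype effect (10.4%) and 0 of 8 for the interaction (5.65%). With so few calls over the whole array, these counts say little about the 8 genes in particular.

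In no member did the 5 arrays of a group lie wholly above or wholly below those of the group they were set against, in any of the 4 pairwise comparisons. Over all genes, groups did not overlap in 1.53% for Dex against saline in Cx30GRko mice, 1.24% for Dex against saline in control mice, 1.28% for genotype under Dex and 0.938% for genotype under saline. The design left room for changes of some size. The 95% intervals of the mean Dex differences spanned from -0.31 to 0.92 over the 8 genes, with margins of 0.21 to 0.46 on either side of the estimate, so the data leave room for differences of that size.

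**Figure D1:**
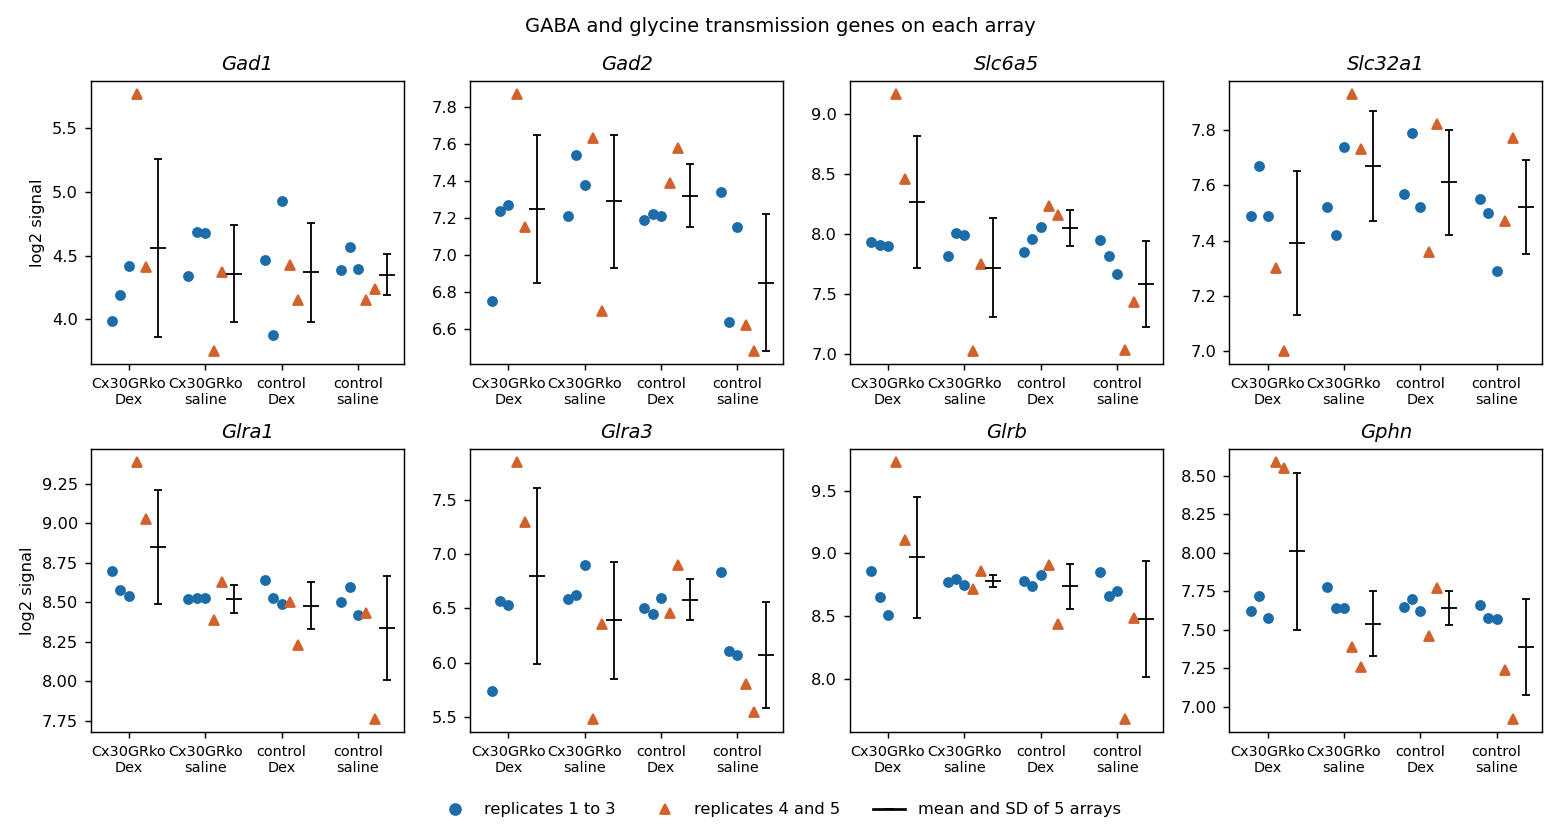
Log2 signal of the 8 genes (vertical axes, 1 panel per gene) on each array of the 4 groups (horizontal axis), with circles for replicates 1 to 3, triangles for replicates 4 and 5, and the mean and SD of 5 arrays beside them. Cx30GRko Dex replicate 4 is the top point in 7 panels, with Gad1 at 5.77 and Slc6a5 at 9.17, and Cx30GRko Dex replicate 5 is the lowest point for Slc32a1, at 7.00.

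The plot of values by group shows the overlap gene by gene. By group mean, Cx30GRko Dex was the highest group for 6 of the 8 genes, all but Gad2 and Slc32a1, and control saline the lowest for 7, all but Slc32a1. No neighbours in these orders passed the test where they were compared. The account starts with the enzymes that make GABA. Gad1 encodes the decarboxylase found throughout the cell body and terminal, and Gad2 the form enriched at synaptic terminals.

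Gad1 signals on replicates 1 to 5 were 3.99, 4.19, 4.42, 5.77 and 4.41 in Cx30GRko Dex and 4.34, 4.69, 4.68, 3.75 and 4.37 in Cx30GRko saline. They were 4.47, 3.88, 4.93, 4.43 and 4.15 in control Dex and 4.39, 4.57, 4.40, 4.15 and 4.24 in control saline. The 4 groups overlapped throughout, apart from the 1 high array of Cx30GRko Dex. The group means were 4.56 ± 0.70 in Cx30GRko Dex, 4.36 ± 0.38 in Cx30GRko saline, 4.37 ± 0.39 in control Dex and 4.35 ± 0.16 in control saline (SD, n = 5 each), so no group differed from another beyond this spread. The mean Dex effect was 0.11 ± 0.19 (SE, limma adjusted p = 0.885), and its sign was not stable, at -0.19 for the first array set, 0.56 for the second and -0.07 ± 0.15 without Cx30GRko Dex replicates 4 and 5. This probe set was dim, at the percentile 51.5 of all probe sets, whereas the other 7 lay at 83.8 or above.

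Gad2 signals were 6.75, 7.24, 7.27, 7.87 and 7.15 in Cx30GRko Dex and 7.21, 7.54, 7.38, 7.63 and 6.70 in Cx30GRko saline. They were 7.19, 7.22, 7.21, 7.39 and 7.58 in control Dex and 7.34, 6.64, 7.15, 6.62 and 6.48 in control saline. Control saline had 3 arrays below every array of the other groups, while the other 3 groups had close means of 7.25 ± 0.40 in Cx30GRko Dex, 7.29 ± 0.36 in Cx30GRko saline and 7.32 ± 0.17 in control Dex, against 6.85 ± 0.37 in control saline (SD, n = 5 each). Dex minus saline was -0.04 ± 0.21 in Cx30GRko mice and 0.47 ± 0.21 in control mice (SE), with limma adjusted p of 0.968 and 0.939. By array set the Cx30GRko value changed sign, with -0.29 in the first and 0.34 in the second, and the control value was 0.16 and 0.93. The difference between these effects, the interaction, was -0.51 ± 0.29 (adjusted p = 0.852). Cx30GRko minus control under saline was 0.44 ± 0.21 (adjusted p = 0.914). The control Dex and Cx30GRko saline comparisons share the control saline arrays, so their values are not separate evidence. The interaction and the genotype difference under saline had the same sign in each array set, with an interaction of -0.45 in the first and -0.59 in the second, and a genotype difference under saline of 0.33 and 0.62. Leaving out the last 2 Cx30GRko Dex arrays gave an interaction of -0.68 ± 0.29 (limma adjusted p = 1).

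The transporters come next. Slc32a1 encodes the vesicular transporter that loads GABA and glycine, and Slc6a5 encodes GlyT2, the plasma membrane transporter that supplies glycinergic terminals. Of the 8 genes, Slc6a5 had the largest mean Dex difference and Slc32a1 was alone in having a negative one, and for that reason their promoter sequences are shown. They are 300 bases from 250 before to 50 after a RefSeq start (GRCm38.p6), 5′ to 3′ on the plus strand, at chr7:49910049-49910348 for the upstream of 2 listed starts of Slc6a5 and at chr2:158610508-158610807 for Slc32a1.
Slc6a5: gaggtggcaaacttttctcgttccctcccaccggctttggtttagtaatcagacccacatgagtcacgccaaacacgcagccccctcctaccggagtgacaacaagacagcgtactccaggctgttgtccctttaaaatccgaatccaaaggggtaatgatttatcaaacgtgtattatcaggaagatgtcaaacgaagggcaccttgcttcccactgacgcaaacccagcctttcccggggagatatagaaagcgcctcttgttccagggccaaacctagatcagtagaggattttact
Slc32a1: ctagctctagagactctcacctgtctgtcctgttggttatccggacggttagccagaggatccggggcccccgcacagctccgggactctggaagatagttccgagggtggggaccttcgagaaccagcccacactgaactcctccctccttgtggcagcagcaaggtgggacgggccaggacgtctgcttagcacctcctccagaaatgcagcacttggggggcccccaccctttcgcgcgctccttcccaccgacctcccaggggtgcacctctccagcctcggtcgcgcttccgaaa
RefSeq windows were found for 7 of the 8 measured genes, 8 windows in all. The letters AGAACA, a half-site of the glucocorticoid receptor's DNA motif (TGTTCT on the other strand), were searched on both strands and stood in 0 of the 8 windows, against 19% of the 32851 windows in the table. No letters are in capitals because there was no match. The search covers these windows alone and says nothing of whether the receptor binds near these genes.

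Slc32a1 signals were 7.49, 7.67, 7.49, 7.30 and 7.00 in Cx30GRko Dex and 7.52, 7.42, 7.74, 7.93 and 7.73 in Cx30GRko saline. They were 7.57, 7.79, 7.52, 7.36 and 7.82 in control Dex and 7.55, 7.50, 7.29, 7.47 and 7.77 in control saline. Cx30GRko Dex replicate 5 was the lowest array, and all the others lay between 7.29 and 7.93. The means were 7.39 ± 0.26 in Cx30GRko Dex, 7.67 ± 0.20 in Cx30GRko saline, 7.61 ± 0.19 in control Dex and 7.52 ± 0.17 in control saline (SD, n = 5 each). Dex minus saline was -0.28 ± 0.15 in Cx30GRko mice (SE, limma adjusted p = 0.53), which was -0.01 in the first array set and -0.68 in the second, and -0.12 ± 0.16 without the last 2 Cx30GRko Dex arrays. It was 0.09 ± 0.15 in control mice, and the interaction was -0.37 ± 0.21 (adjusted p = 0.846). A second, dim probe set of Slc32a1 with a mean of 3.27 gave a mean Dex effect of 0.02 ± 0.13, against -0.09 ± 0.10 for the brighter one, neither of them distinguishable from 0.

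Slc6a5 signals were 7.93, 7.91, 7.90, 9.17 and 8.46 in Cx30GRko Dex and 7.82, 8.01, 7.99, 7.02 and 7.75 in Cx30GRko saline. They were 7.85, 7.96, 8.06, 8.23 and 8.16 in control Dex and 7.95, 7.82, 7.67, 7.03 and 7.43 in control saline. Both Dex groups had their highest arrays, and both saline groups their lowest, among replicates 4 and 5, while replicates 1 to 3 of all 4 groups lay between 7.67 and 8.06. The mean was 8.27 ± 0.55 in Cx30GRko Dex and 7.72 ± 0.41 in Cx30GRko saline, and it was 8.05 ± 0.15 in control Dex and 7.58 ± 0.36 in control saline (SD, n = 5 each). The mean Dex effect, 0.51 ± 0.17 (SE), had the smallest p of the 8 genes in any comparison and did not pass, at an unadjusted p of 0.00567 and a limma adjusted p of 0.425. By array set it came to 0.06 (replicates 1 to 3) and 1.20 (replicates 4 and 5). Leaving out the last 2 Cx30GRko Dex arrays gave 0.33 ± 0.14 (adjusted p = 0.941).

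The receptor subunits follow. Glra1 encodes the main alpha subunit of the adult glycine receptor in the spinal cord, Glra3 an alpha subunit found in the superficial dorsal horn, and Glrb the beta subunit that binds gephyrin. Gphn encodes gephyrin itself.

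Glra1 signals were 8.70, 8.58, 8.54, 9.39 and 9.03 in Cx30GRko Dex and 8.52, 8.53, 8.53, 8.39 and 8.63 in Cx30GRko saline. They were 8.64, 8.53, 8.49, 8.50 and 8.23 in control Dex and 8.50, 8.60, 8.42, 8.43 and 7.76 in control saline. Cx30GRko Dex held the highest arrays and control saline the lowest one. The means were 8.85 ± 0.36 in Cx30GRko Dex, 8.52 ± 0.09 in Cx30GRko saline, 8.48 ± 0.15 in control Dex and 8.34 ± 0.33 in control saline (SD, n = 5 each). Glra1 had the smallest p of the members for genotype, with Cx30GRko minus control at 0.37 ± 0.17 under Dex (SE, unadjusted p = 0.042, limma adjusted p = 0.439) and 0.27 ± 0.12 over both treatments (unadjusted p = 0.0337, adjusted p = 0.464). By array set the mean genotype effect came to 0.04 (replicates 1 to 3) and 0.63 (replicates 4 and 5), and to 0.15 ± 0.11 without Cx30GRko Dex replicates 4 and 5.

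Glra3 signals were 5.74, 6.57, 6.53, 7.85 and 7.30 in Cx30GRko Dex and 6.59, 6.62, 6.90, 5.48 and 6.36 in Cx30GRko saline. They were 6.50, 6.45, 6.60, 6.46 and 6.90 in control Dex and 6.84, 6.11, 6.07, 5.80 and 5.55 in control saline. This gene had the widest range of the 8 over the 20 arrays, 2.37, and Cx30GRko Dex held both its highest array and a low one. Its means were 6.80 ± 0.81 in Cx30GRko Dex, 6.39 ± 0.54 in Cx30GRko saline, 6.58 ± 0.19 in control Dex and 6.07 ± 0.49 in control saline (SD, n = 5 each). The mean Dex effect was 0.46 ± 0.22 (SE, limma adjusted p = 0.581), at -0.12 for replicates 1 to 3 but 1.33 for replicates 4 and 5. It was 0.20 ± 0.19 with the last 2 Cx30GRko Dex arrays left out.

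Glrb signals were 8.86, 8.65, 8.51, 9.73 and 9.11 in Cx30GRko Dex and 8.77, 8.80, 8.75, 8.72 and 8.86 in Cx30GRko saline. They were 8.78, 8.74, 8.83, 8.91 and 8.44 in control Dex and 8.85, 8.66, 8.70, 7.68 and 8.49 in control saline. Cx30GRko Dex replicates 4 and 5 lay above every array of the other groups, and control saline replicate 4 was the lowest array. The means were 8.97 ± 0.48 in Cx30GRko Dex, 8.78 ± 0.05 in Cx30GRko saline, 8.74 ± 0.18 in control Dex and 8.48 ± 0.46 in control saline (SD, n = 5 each). The mean Dex effect was 0.23 ± 0.15 and the mean genotype effect 0.27 ± 0.15 (SE, limma adjusted p of 0.668 and 0.527), or 0.08 ± 0.13 and 0.12 ± 0.13 without the last 2 Cx30GRko Dex arrays. In the first array set both were -0.03, and in the second they were 0.61 and 0.72.

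Gphn signals were 7.62, 7.72, 7.58, 8.59 and 8.55 in Cx30GRko Dex and 7.78, 7.64, 7.64, 7.39 and 7.26 in Cx30GRko saline. They were 7.65, 7.70, 7.62, 7.46 and 7.77 in control Dex and 7.66, 7.58, 7.57, 7.24 and 6.92 in control saline. Replicates 1 to 3 of all groups lay between 7.57 and 7.78, and replicates 4 and 5 spread on both sides of them. The means were 8.01 ± 0.51 in Cx30GRko Dex, 7.54 ± 0.21 in Cx30GRko saline, 7.64 ± 0.11 in control Dex and 7.39 ± 0.31 in control saline (SD, n = 5 each). The mean Dex effect was 0.36 ± 0.14 (SE, unadjusted p = 0.0196, limma adjusted p = 0.538), at 0.00 for the first array set but 0.89 for the second. In Cx30GRko mice Dex minus saline was 0.47 ± 0.20 (adjusted p = 0.486), and 0.10 ± 0.17 without the last 2 Dex arrays.

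**Figure D2:**
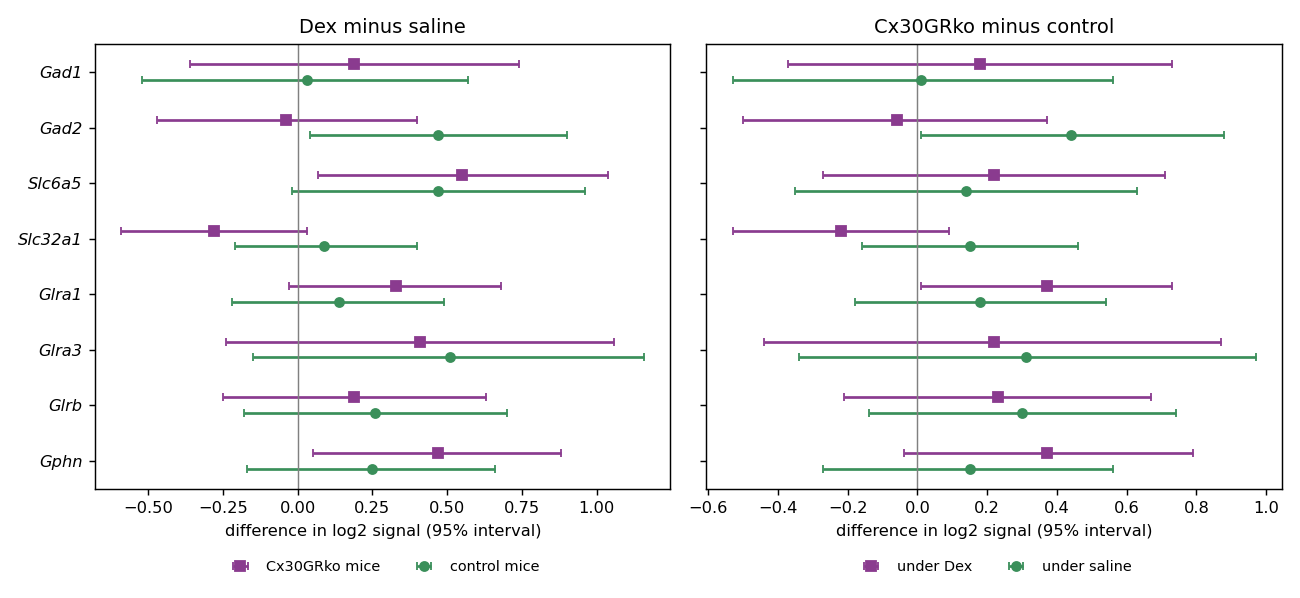
Differences in log2 signal (horizontal axes) of the 8 genes, Dex minus saline within each genotype on the left and Cx30GRko minus control within each treatment on the right, as the estimate and its 95% interval from the fit over 20 arrays. Gad2 is near 0 in Cx30GRko mice (-0.04) and at 0.47 in control mice for Dex, and Slc32a1 is the member furthest below 0, at -0.28 for Dex in Cx30GRko mice.

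In the plot of differences most estimates lie to the right of 0. For Dex minus saline 6 of 8 members were above 0 in Cx30GRko mice, with a median of 0.26, and 8 of 8 in control mice, with a median of 0.25. Over all genes those medians were 0.02 and 0.01, and 53.7% and 52.3% of genes were above 0. For Cx30GRko minus control, 6 of 8 were above 0 under Dex, with a median of 0.22, and 8 of 8 under saline, with a median of 0.17, both against a median of 0.01 over all genes. Where Cx30GRko Dex arrays enter, these counts turned with the arrays used. For Dex in Cx30GRko mice, 1 of 8 was above 0 in replicates 1 to 3 (median -0.07) and 3 of 8 without Cx30GRko Dex replicates 4 and 5 (median -0.11). For genotype under Dex, 1 of 8 was above 0 in replicates 1 to 3 (median -0.09) and 2 of 8 without those arrays (median -0.10). The counts of 8 of 8 fell when single control saline arrays were left out. For Dex in control mice, 6 of 8 were above 0 without control saline replicate 5 (median 0.21). For genotype under saline, 6 of 8 were above 0 without control saline replicate 4 (median 0.12). These comparisons share groups, so their counts are not independent of each other. In bulk tissue, fewer cells of a type and less RNA per cell cannot be told apart.

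The medians were larger in replicates 4 and 5 than in replicates 1 to 3, though less so for genotype under saline. There the members' median was 0.12 for replicates 1 to 3, with 8 of 8 above 0, and 0.25 for replicates 4 and 5. For Dex in control mice it was 0.10, with 7 of 8 above 0, and 0.56. The members' median mean Dex effect was -0.01 for replicates 1 to 3 but 0.62 for replicates 4 and 5, while over all genes it was 0.00 and 0.04. The members' median mean genotype effect was 0.04 for the first set but 0.48 for the second. In replicates 1 to 3 the mean Dex differences of the 8 genes ran from -0.19 to 0.08, with 95% intervals between -0.54 and 0.28, and the smallest limma adjusted p was 0.896. In replicates 4 and 5 they ran from -0.35 to 1.33, and the smallest adjusted p was 0.284. A test of the difference between the sets was not run. Without Cx30GRko Dex replicates 4 and 5 the median mean Dex effect of the members was 0.12, against 0.01 over all genes.

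**Figure D3:**
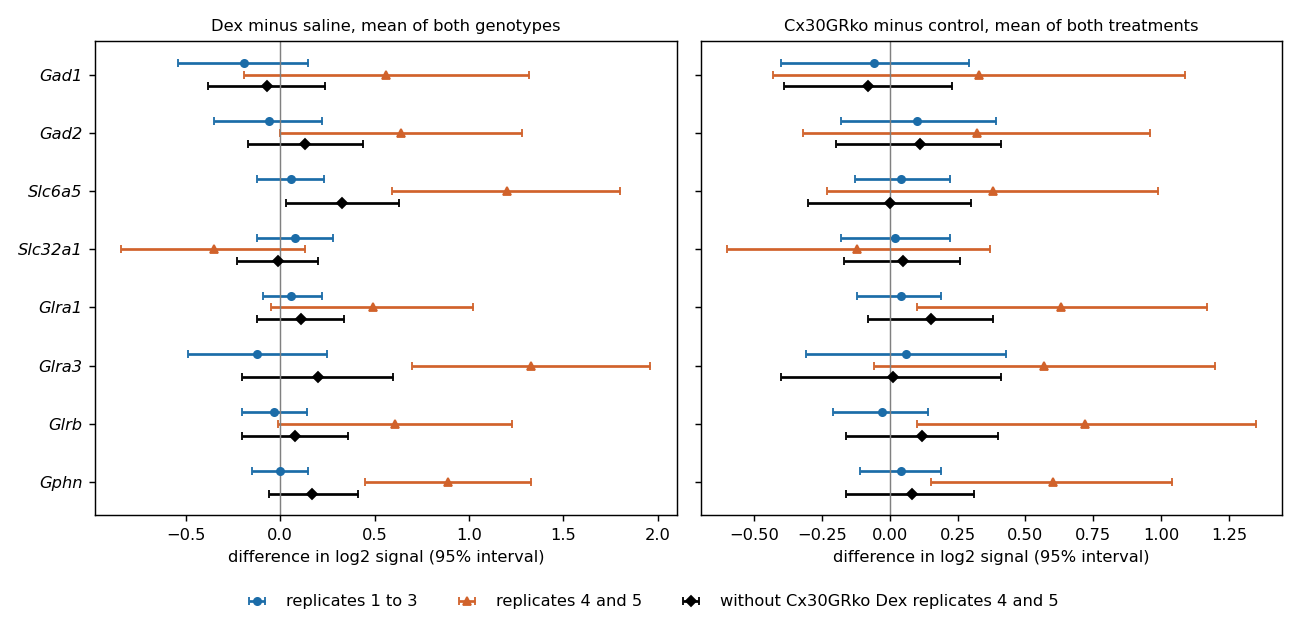
Mean Dex difference (left) and mean genotype difference (right) in log2 signal, with 95% intervals, for each of the 8 genes over replicates 1 to 3, over replicates 4 and 5, and over all arrays but Cx30GRko Dex replicates 4 and 5. On the left replicates 1 to 3 sit between -0.19 and 0.08, and replicates 4 and 5 reach 1.33 for Glra3.

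The spread in the plot by array set can be followed to single arrays. Cx30GRko Dex replicate 4 was the highest of the 8 arrays of its set for 7 of the 8 genes, all but Slc32a1. Centred on the array set, the mean of the 8 genes was 0.90 on that array and 0.32 on Cx30GRko Dex replicate 5, against -0.50 and -0.47 on control saline replicates 4 and 5. Some marker lists were also high on these arrays and others were not. The general neuron markers (15 of 15 measured) had a mean centred signal of 0.57 and 0.29 on those Cx30GRko Dex arrays, against -0.52 and -0.17 on control saline replicates 4 and 5. By group they ranged from -0.12 to 0.57 in Cx30GRko Dex, from -0.07 to 0.08 in Cx30GRko saline, from -0.07 to 0.06 in control Dex and from -0.52 to 0.04 in control saline. On the same Cx30GRko Dex arrays the astrocyte markers (12 of 12 measured) stood at 0.77 and 0.45, and the oligodendrocyte markers (8 of 9 measured) at 0.80 and 0.32. Excitatory neuron markers stood at -0.07 and 0.13, microglia markers at -0.16 and 0.18, skeletal muscle markers at -1.06 and -0.34, and the transcription factors of the inhibitory lineage at -0.48 and -0.01. The excitatory list mixes dim and bright probe sets, from Tlx3 with a mean signal of 2.88 to Slc17a6 with 8.02. Its members differed: the mean Dex effect by array set was -0.01 and 0.81 for Slc17a6, but -0.31 and -0.36 for Grp. The lineage factors Ptf1a and Gbx1 had mean signals of 4.19 and 4.63. By group the astrocyte markers ranged from -0.05 to 0.77 in Cx30GRko Dex, from -0.26 to 0.07 in Cx30GRko saline, from -0.39 to 0.05 in control Dex and from -0.38 to -0.01 in control saline.

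Bright genes as a whole were also higher on these arrays. Of the 8 genes, 7 belong to the brightest 20% of genes tested, which number 4436 with a mean signal of 6.43 or more. The median centred value of those genes was 0.46 and 0.22 on Cx30GRko Dex replicates 4 and 5, against -0.17 and -0.13 on control saline replicates 4 and 5, and between -0.02 and 0.01 on all 12 arrays of replicates 1 to 3. The part of this shift and of the cell markers in the members' values was not tested. After quantile normalization of the deposited values, the members' median mean Dex effect was 0.13 and their median interaction was -0.18, against 0.23 and 0.01 as deposited.

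**Figure D4:**
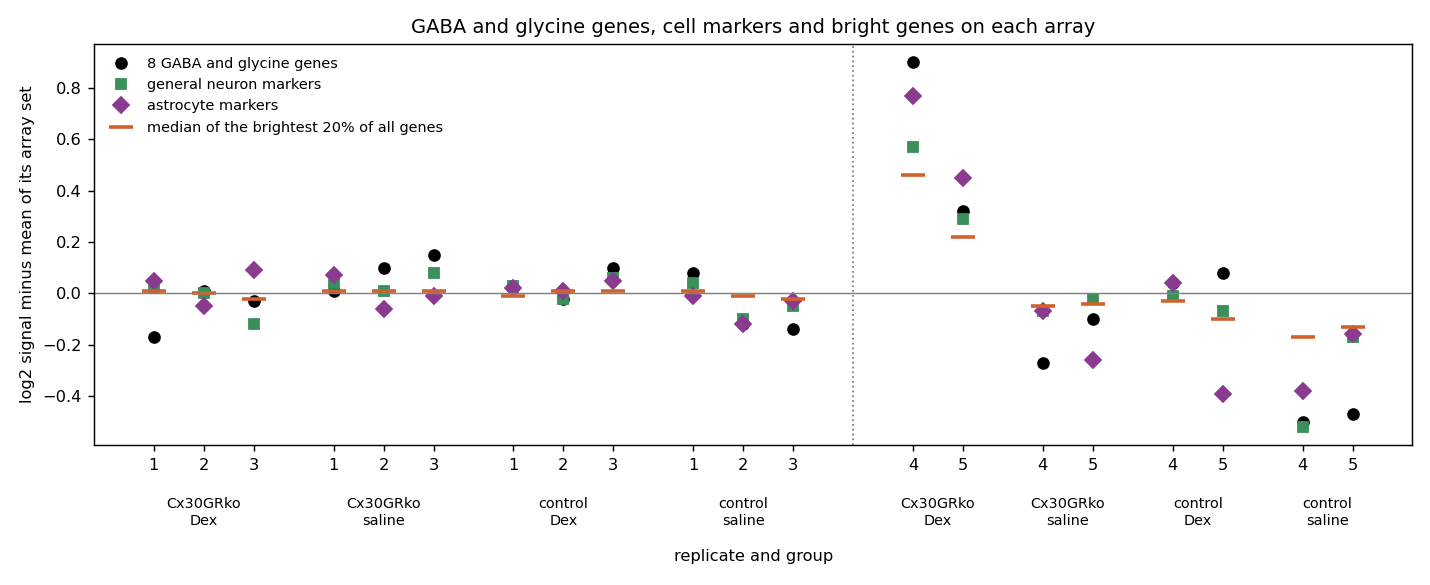
Log2 signal minus the mean of its array set (vertical axis) on each of the 20 arrays (horizontal axis, replicates 1 to 3 left of the dotted line and 4 and 5 right of it), for the mean of the 8 genes, general neuron markers, astrocyte markers and the median of the brightest 20% of all genes. All of these are highest on Cx30GRko Dex replicate 4, at 0.90 for the 8 genes, and none departs from 0 by as much in replicates 1 to 3.

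The wider inhibitory machinery was covered by 8 lists with 51 measured genes. None of the 51 was called in any of the 7 comparisons. At an unadjusted p under 0.05 they numbered 9 of 51 (17.6%) for Dex in Cx30GRko mice, where 9.73% of all genes had such a p, and 2 of 51 (3.92%) for Dex in control mice, against 5.16%. For the mean Dex effect they numbered 3 of 51 (5.88%), against 8.64% of all genes, and for the interaction 6 of 51, against 5.65%. For genotype they numbered 9 of 51 under Dex (17.6%), 5 of 51 under saline (9.8%) and 12 of 51 for the mean (23.5%), against 11.2%, 5.25% and 10.4% of all genes. Among the 98 measured marker genes of cell types the shares were 18.4% under Dex, 8.16% under saline and 15.3% for the mean. For Dex in Cx30GRko mice the marker share was 8.16%. All these comparisons but Dex in control mice and genotype under saline include Cx30GRko Dex replicates 4 and 5.

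GABA-A receptor subunits, which form the chloride channels opened by GABA, gave the smallest p of these lists for the mean genotype effect. There 13 of 16 subunits were above 0, against 51.9% of all genes, with a median of 0.21 that was 0.06 in the first array set but 0.28 in the second. Gabra2, an alpha subunit, had signals of 8.08, 8.10, 8.29, 9.78 and 8.60 in Cx30GRko Dex, against 7.40, 7.28, 7.74, 7.33 and 6.77 in control Dex. All 5 Cx30GRko Dex arrays lay above all 5 control Dex arrays, in both array sets, as happened in 1.28% of all genes in either direction. The difference was 1.26 ± 0.29 (SE, unadjusted p = 0.000306, limma adjusted p = 0.423), at 0.68 in the first array set but 2.14 in the second. Under saline Gabra2 had 7.76, 8.37, 7.65, 7.54 and 7.78 in Cx30GRko mice, against 8.20, 7.44, 7.77, 8.11 and 6.81 in control mice, with a difference of 0.15 ± 0.29 and overlapping groups. The interaction for Gabra2 was 1.11 ± 0.42 (adjusted p = 0.846). Both the interaction and the difference under Dex are given with Cx30GRko Dex replicates 4 and 5 included, at signals of 9.78 and 8.60.

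Gabra4, another alpha subunit, had a mean genotype effect of 0.52 ± 0.15 (SE, limma adjusted p = 0.463), at 0.38 in the first array set but 0.72 in the second. Without Cx30GRko Dex replicates 4 and 5 the mean genotype effect was 0.50 for Gabra2 and 0.39 for Gabra4. For the mean Dex effect the subunits with the smallest p were Gabrr3 at -0.36, Gabrg1 at -0.29 and Gabra5 at 0.38, none of which passed (adjusted p of 0.541, 0.598 and 0.616). Without Cx30GRko Dex replicates 4 and 5, Gabra5 was at 0.10.

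The remaining glycine receptor subunits showed no common direction. Glra2, the alpha subunit of the immature receptor, and Glra4 each had a mean Dex effect of -0.08 (limma adjusted p of 0.932 and 0.908). In the first array set Glra2 was at -0.19 and Glra4 at 0.13, and in the second Glra2 was at 0.08 and Glra4 at -0.40. Gabbr1, an obligate subunit of the metabotropic GABA-B receptor, had a mean Dex effect of 0.39 ± 0.18 (SE, adjusted p = 0.572), which was -0.01 for replicates 1 to 3 but 1.00 for replicates 4 and 5. Without the last 2 Cx30GRko Dex arrays it was 0.19. Its partner Gabbr2 had 0.19 ± 0.09, at 0.01 in the first array set, 0.45 in the second and 0.10 without those arrays.

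Among GABA transporters and breakdown enzymes, Slc6a11, an astrocyte GABA transporter, had a mean Dex effect of 0.24 ± 0.12 and a mean genotype effect of 0.25 ± 0.12 (SE, limma adjusted p of 0.598 and 0.482). Its Dex effect was 0.06 and 0.50 in the sets and its genotype effect 0.09 and 0.49, and without Cx30GRko Dex replicates 4 and 5 they were 0.15 and 0.16. Aldh5a1, which removes the semialdehyde made from GABA, had a mean genotype effect of -0.33 ± 0.16 (adjusted p = 0.478), at 0.07 in the first array set but -0.94 in the second. In the list of glycine breakdown and synthesis, Dld, a subunit shared by the glycine cleavage system and other complexes, had 0.41 ± 0.17 for genotype (adjusted p = 0.463), with 0.03 and 0.97 in the sets and 0.20 without the last 2 Cx30GRko Dex arrays.

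The chloride gradient on which these channels depend is set by Slc12a5, which exports chloride, and Slc12a2, which imports it. Slc12a5 had a mean Dex effect of 0.00 ± 0.13 and a mean genotype effect of 0.13 ± 0.13 (SE). Slc12a2 had 0.36 ± 0.15 and 0.34 ± 0.15 (limma adjusted p of 0.55 and 0.464), and its Dex effect was 0.06 in the first array set but 0.80 in the second. Its genotype effect was -0.04 and 0.92 in the sets, and without the last 2 Cx30GRko Dex arrays its effects were 0.18 and 0.17. Scaffold and receptor trafficking genes were above 0 in 10 of 10 for the mean Dex effect, against 54.1% of all genes. Their median was 0.14, and 0 of 10 had an unadjusted p under 0.05, against 8.64% of all genes. In replicates 1 to 3 they were above 0 in 7 of 10 with a median of 0.02, and in replicates 4 and 5 the median was 0.27. Among transcription factors of the inhibitory lineage, Ptf1a, which specifies dorsal inhibitory neurons, had a mean genotype effect of -0.57 ± 0.23 (adjusted p = 0.463), at -0.14 in the first array set but -1.21 in the second. Gbx1 had 0.35 ± 0.17, with 0.32 and 0.39.

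Genes whose pattern was most like the members were ranked by Pearson r over the 20 arrays, each centred on its array set, as a description. For the mean of the 8 genes these were Kctd13 (r = 0.96), Pclo (0.95), Aplp2 (0.95), Cpe (0.94) and Prkar2a (0.94). Pclo encodes piccolo, a scaffold of the presynaptic active zone, and Cpe the neuropeptide-processing enzyme carboxypeptidase E. In replicates 1 to 3 alone these r values were 0.76, 0.75, 0.52, 0.28 and 0.15, and in replicates 4 and 5 they were between 0.97 and 0.99. Single members had as closest genes Ppp3ca for Gad1 (0.84), Abat for Gad2 (0.85), Lrrc4b for Slc32a1 (0.93), Cmas for Slc6a5 (0.95), Nars for Glra1 (0.96), Gabbr2 for Glra3 (0.91), Tmem50b for Glrb (0.97) and Camta1 for Gphn (0.96). Abat, the GABA transaminase that breaks GABA down, kept an r of 0.77 with Gad2 in replicates 1 to 3, and Gabbr2 kept 0.81 with Glra3. These genes were measured on the same arrays as the members, and the part of the brightness shift in their likeness was not tested.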

How the data were processed

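The authors deposited 1 table of log2 signals for 41345 probe sets on 20 arrays. The submitters' processing notes name oligo, but the sources used here give neither its version nor the normalization or the array's genome build. Per the labels' protocols, RNA was labelled with the Affymetrix/Ambion WT Expression kit. Every array had a mean of 4.64, and the means of replicates 1 to 3 and of replicates 4 and 5 were equal for every probe set within 4.5e-09, so the values had been centred within the sets. The labels do not mention these sets, and each holds every group.

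Probe sets with 1 symbol (23521), several (1814) or none (16010) came from the platform annotation. For each of 22180 genes the probe set with the highest mean was kept, which was a choice for 1082 genes, Slc32a1 among them. No filter on dim signals was applied. The 20 arrays entered 1 fit with a mean for each group, made with limma 3.58.1 in R 4.3.3 (lmFit and eBayes, 16 residual degrees of freedom, two-sided, Benjamini-Hochberg over all genes, threshold 0.05), with 7 comparisons. The number of arrays limits the precision. The fit was tested on simulated data with independent noise for each gene and array. Those data held no shift shared by the genes of an array, so the test does not cover such shifts.

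Members and lists were chosen with earlier results of these data known. Of each of the 8 wider inhibitory and 15 marker lists, the genes to name were up to 3 with the smallest p for the mean Dex effect and up to 2 for the mean genotype effect, and the likeness genes were those with the highest r. Gabra2 and Slc12a2 were among them, and the other comparisons of Gabra2 were added after its values were seen. Of the 108 marker genes 98 were measured, in 14 lists, and 0 of these 98 were called in any comparison. Alternatives covered blocks, array sets, single arrays left out, array weights, normalization, probe set choice, a filter on dim probe sets (below percentile 33) and the variance prior. Promoter sequences are from RefSeq, GRCm38.p6.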

Additional observations from a re-analysis of the deposited data

Results flagged for a closer look

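Within each group of 5 arrays, each of the 8 genes was checked for 1 array far from the others (Dixon's ratio of gap to range above its 95% critical value), in 32 sets of 5 values. Chance gives about 1 in 20 such results where all 5 values have the same spread. Here the median residual SD over genes was 0.21 in replicates 1 to 3 but 0.37 in replicates 4 and 5, so the rate may differ. Gad1 in Cx30GRko Dex replicate 4 had a log2 signal of 5.77, with the other arrays of the group between 3.99 and 4.42. Slc6a5 in Cx30GRko saline replicate 4 had 7.02, with the others between 7.75 and 8.01. Glra1 in control saline replicate 5 had 7.76, with the others between 8.42 and 8.60. All 3 arrays belong to replicates 4 and 5. No other group of 5 arrays held such a value, and no member was called for the interaction of genotype and Dex.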

How the results depend on the processing

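The count of the 8 genes called was 0 in each of the 7 comparisons under every alternative run, single arrays left out included. With the replicate block the count was 0 of 8 as well. Same-numbered arrays had a mean correlation of deviations from their group means between -0.12 and -0.06. The values were already centred within each array set, which makes such correlations lean negative. They therefore cannot decide whether the replicate numbers pair the arrays. Over the 8 genes and 7 comparisons, 1788 of 1880 alternative values kept the sign of the reported difference and 92 did not, none of them called. Of these 92, 30 came from single arrays left out, 22 from replicates 1 to 3 alone, 15 from leaving out Cx30GRko Dex replicates 4 and 5, and 12 from array weights. Many alternatives could not change a difference: the blocks, the dim filter, all probe sets tested, the variance prior and the compared groups alone. Leaving out an array of a group outside the comparison could not either. Counts of kept signs, here and for single genes below, therefore overstate the stability of the signs. The Gad2 interaction kept its sign in 33 of 33 alternatives, from -0.68 to -0.38, and its genotype difference under saline in 34 of 34, from 0.33 to 0.62. The Slc6a5 mean Dex effect kept its sign in 33 of 33, from 0.06 to 1.20, with adjusted p from 0.287 to 0.958 in limma. Over all genes, the calls for Dex in Cx30GRko mice, Dex in control mice and the mean Dex effect were 4, 3 and 33. They were 7, 38 and 101 in replicates 1 to 3, 0 in each with replicates 4 and 5, 0, 7 and 24 without Cx30GRko Dex replicates 4 and 5, 18, 58 and 129 with array weights, and 0, 0 and 15 with the replicate block. In Cx30GRko mice the count was 2 with the array set block, with quantile normalization and with cyclic loess, and fitting the compared groups alone gave 1 in Cx30GRko and 0 in control mice. The cause of these changes was not tested. Probes near background cannot be marked in this table, which limits the reading of Gad1.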
